A study of Homo sapiens with 12 samples.

Results

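The response examined here is the mean transcript change in keratinocytes given any of 3 targeting siRNAs, against keratinocytes given a negative control siRNA. All 12 libraries of the series entered it: 9 targeting libraries (3 each with ATF3, APOE or CXCL14 siRNA, every siRNA weighted equally as the mean of its 3) and 3 control libraries. N/TERT-2G cells, a line of human skin keratinocytes immortalised with telomerase, were grown in serum-free keratinocyte medium. Every group, the control included, was transfected in 6-well plates with 5 μl of Lipofectamine, a lipid reagent, and 100 pmol of siRNA per well, and the medium was changed after 6 h. There was no untransfected group, so a change against the control cannot be told apart from an effect of the control siRNA itself. The siRNA sequences, the time from transfection to RNA extraction and the origin of the replicates are not given in the sources used here. P-values therefore measure the spread between these libraries, which may be technical.

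A small interfering RNA is loaded into the RNA-induced silencing complex and guides the cleavage of matching messages. It can also lower messages that match only its seed, occupy the silencing machinery, or be sensed as double-stranded RNA, which raises interferon-stimulated genes. Basal keratinocytes divide and hold integrins, whereas spinous and granular keratinocytes leave the cell cycle and make the cornified envelope. Of the targets, ATF3 is a transcription factor induced by stress, APOE carries lipids in lipoproteins, and CXCL14 is an epithelial chemokine.

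Total counts ran from 16225691 to 16362761 in the control libraries and from 16598426 to 22246755 in the targeting libraries, so every control library was shallower than every targeting library. The exact two-sided permutation test of totals over the 220 placements of 3 libraries among 12 gave p = 0.0455, or 0.273 after Benjamini-Hochberg adjustment over 6 items. That test takes the 12 libraries as exchangeable, though they come in groups of 3. The share of mitochondrial transcripts was 1.90 to 2.76%. Summed CPM (counts in proportion to the scaled library size) of 8 keratinocyte markers ran from 24430 to 27050 in controls and from 17770 to 35700 in targeting libraries, though KRT1 was at most 0.0604 CPM in controls. Of the markers of other cells, 5 of 6 for fibroblasts, 4 of 5 for melanocytes and all 3 for endothelium were under 1 CPM in every library, and PTPRC, CD3E and LYZ were at 0 in every library. COL1A1, a collagen chain of fibroblasts, was at 25.0 to 33.9 CPM in controls and 13.3 to 87.0 in targeting libraries, PMEL, of melanocytes, at 0.664 to 1.40 and 0.782 to 2.12, and CD14, of monocytes, at 1.87 to 2.85 and 0.980 to 6.12. KDR, a further endothelial marker, was called in the pooled comparison at 1.00 ± 0.35 on the log2 scale (edgeR adjusted p = 0.0316), at 0.243 to 0.434 CPM in controls and 0.337 to 1.58 in targeting libraries, and lost its call in 9 of 22 alternatives, among them without control library 1 or 2, ATF3 siRNA library 1, APOE siRNA library 2 or CXCL14 siRNA library 3 (0.83 to 1.24 over all single libraries left out). The part of other cells in the results was not tested.

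Each targeted gene was lowest with its own siRNA. ATF3 was at 43.0, 43.0 and 40.5 CPM with control siRNA and at 12.02, 12.5 and 11.49 with its own siRNA, at 42.4, 38.8 and 44.7 with APOE siRNA, then at 64.1, 71.6 and 69.3 with CXCL14 siRNA. APOE was at 2.78, 3.59 and 3.16 CPM with control siRNA and at 0.106, 0.274 and 0.191 with its own, at 2.67, 4.44 and 4.54 with ATF3 siRNA, then at 5.48, 5.78 and 6.37 with CXCL14 siRNA. CXCL14 was at 0.423, 0.365 and 0.682 CPM with control siRNA, under 4 times the CPM of 3 counts, at 0.0527, 0.0545 and 0 with its own, at 0.230, 0.956 and 1.27 with ATF3 siRNA, then at 12.3, 4.27 and 9.06 with APOE siRNA. In the pooled comparison ATF3 fell by 0.37 ± 0.06 on the log2 scale (SE; edgeR adjusted p = 0.000102) and APOE fell by 0.95 ± 0.21 (adjusted p = 0.00169), while CXCL14, at 0.39 ± 0.96, was not called (adjusted p = 0.774). With the 9 libraries as 1 group none of the 3 was called, and APOE changed sign (0.0676). The exact two-sided permutation test of mean CPM in 9 libraries against 3 gave p = 0.809 for ATF3, 0.945 for APOE and 0.409 for CXCL14. It too takes the 9 libraries as exchangeable, though the siRNAs differ.

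In the pooled comparison 6495 of 14920 tested genes passed an adjusted p of 0.05 (edgeR quasi-likelihood test, Benjamini-Hochberg), which is 43.5%. Of these, 2982 rose (20.0% of the genes tested) and 3513 fell (23.5%). The changes were mostly small: the median size among called genes was 0.40 on the log2 scale, and 307 genes rose and 261 fell at least 2-fold. Most were not common to the 3 siRNAs in size. A gene was named even where its 3 changes against control had 1 sign and the weakest was at least 0.5 of the strongest, uneven where the ratio lay between 0 and 0.5, and opposed where the signs differed. By this rule 865 called genes were even (13.3%), 3856 uneven (59.4%) and 1774 opposed (27.3%). The 3 siRNAs are each set against the same control libraries, so these classes share the control's error.

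The siRNAs contributed unequally. Set against control alone, ATF3 siRNA gave 3041 called genes (20.4%), APOE siRNA 6681 (44.8%) and CXCL14 siRNA 8327 (55.8%). Among the genes of the pooled call the median size of change was 0.23 with ATF3 siRNA, 0.41 with APOE siRNA and 0.58 with CXCL14 siRNA on the log2 scale. CXCL14 siRNA gave the strongest change in 3772 of the 6495 genes and ATF3 siRNA the weakest in 3706. A test of the difference among the 3 siRNAs, which sets no targeting group against the control, called 10248 genes (68.7%). It called 5437 (83.7%) of the genes of the pooled comparison, all 1774 opposed genes among them, but 186 of the 865 even genes. The classes are defined from the changes that this test compares, so its rates by class are largely built in.

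How far 1 group in the place of the control gives a similar count was measured with the same form of comparison, each group in turn against the mean of the other 3. The control gave 6495 called genes, ATF3 siRNA 5216 (35.0%), APOE siRNA 7050 (47.3%) and CXCL14 siRNA 8902 (59.7%). Genes shifted evenly against all the other groups numbered 865 for the control, 491 for ATF3 siRNA, 1881 for APOE siRNA and 3952 for CXCL14 siRNA. At 2-fold or more these were 111, 78, 467 and 1328. By count the control group thus stood apart from the rest more than the ATF3 siRNA group did and less than the other 2 groups. The root mean square distance in log2 CPM from the mean of the others gave the same order, 0.433 for the control, 0.381 for ATF3 siRNA, 0.505 for APOE siRNA and 0.675 for CXCL14 siRNA.

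The control libraries also carry most of the error, since with equal spread the mean of 3 control libraries supplies 75% of the sampling variance of the pooled difference. Each siRNA was therefore set against a different control library, in the 6 possible assignments, and genes past 1.5-fold in 1 direction with all 3 siRNAs were counted. With the shared control mean 379 genes met this limit (268 higher, 111 lower). With separate control libraries the count was 286 to 351, and 118 genes (79 higher, 39 lower) met it in all 6 assignments. A single library is also noisier than a mean of 3, so that noise and the loss of sharing cannot be told apart. Meeting the limit in all 6 means that every siRNA mean passed against every single control library, a stricter limit on the same 3 controls. With ATF3 siRNA libraries as the reference the shared count was 251 and the separate counts 188 to 216, against 1032 and 856 to 923 for APOE siRNA and 2311 and 2018 to 2122 for CXCL14 siRNA. Of the even genes, 589 of 598 that rose and 256 of 267 that fell kept their sign in all 6 assignments. They had been chosen against the mean of these same control libraries, so the kept signs are largely built into the choice and no further support. Separate libraries still share the control siRNA.

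**Figure D1:**
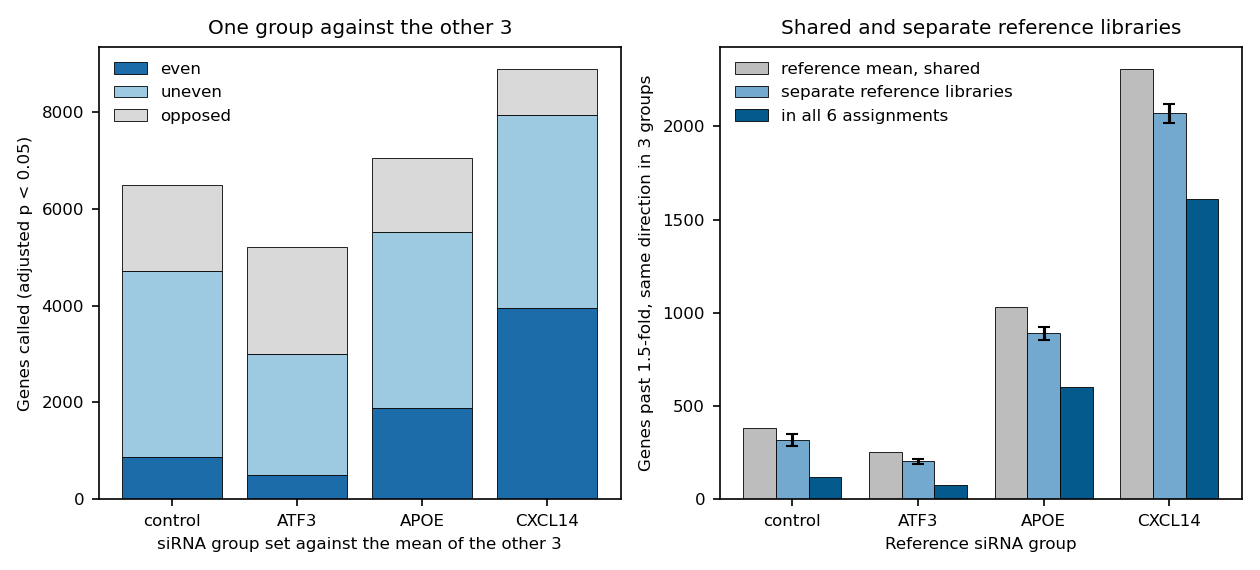
Left, genes called when each siRNA group is set against the mean of the other 3 (bars, stacked by whether the 3 differences are even, uneven or opposed). Right, genes past 1.5-fold in the same direction in the other 3 groups, with the reference mean shared (grey), with separate reference libraries (light blue, midpoint, the error bar from the lowest to the highest of 6 assignments) and in all 6 (dark blue). The control bars, 6495 called and 379 past 1.5-fold, lie between those of ATF3 siRNA and APOE siRNA.

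Treating the 9 targeting libraries as 1 group puts the spread between siRNAs into the error. It still counts 9 independent libraries, though they are 3 each of 3 siRNAs, so its adjusted p can be too low. That model called 570 genes (3.82%), 373 higher and 197 lower, all of them within the pooled call, and 3346 at an unadjusted p under 0.05. Of the 570, 351 were even, 219 uneven and 0 opposed, and 561 had CPM that did not overlap between the targeting and control libraries. The model's error holds the spread that sets these classes, so this split and the lack of overlap are largely built in and no further support. Among all tested genes the 9 targeting libraries lay above all 3 control libraries for 984 (6.60%) and below them for 895 (6.00%).

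The even response held more rises than falls, 598 against 267. This split depends on scaling: with library size alone in place of TMM it was 449 against 373, so the share of rises was 54.6% in place of 69.1%. Without a filter on low counts it was 551 against 361 (60.4%). The ratio of weakest to strongest ran from 0.5002 to 0.986, with a median of 0.620. Just inside the limit lay ASPRV1 (0.5002), POLR2F (0.5006) and RPS6 (0.5009), and just outside PJA2 (0.4998), CSTB (0.4997) and COX6C (0.4995). Genes described next were taken from 366 rising and 156 falling protein-coding even genes of at least 5 CPM whose targeting and control libraries did not overlap, 12 in each direction with the largest weakest change. Non-overlap is part of that choice and no further support for it. Their calls held in all 23 alternatives computed.

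The clearest common rise was in ACLY (chr17:41866908-41930542, hg38, minus strand), the enzyme that makes cytosolic acetyl-CoA from citrate for lipid synthesis. ACLY was at 243, 238 and 250 CPM with control siRNA, at 742, 666 and 745 with ATF3 siRNA, at 773, 739 and 772 with APOE siRNA, then at 701, 738 and 736 with CXCL14 siRNA. The 9 targeting libraries formed 1 narrow band about 3.01-fold above the controls, with no overlap. The pooled log2 change was 1.59 ± 0.05 (SE; edgeR adjusted p = 1.96e-11), the changes were 1.56, 1.64 and 1.57 with the ATF3, APOE and CXCL14 siRNAs, and the adjusted p of the difference among them was 0.377. It was also called with the 9 libraries as 1 group (adjusted p = 2.24e-07). Of the 24 tested genes of the fatty acid synthesis list, ACLY included, 9 rose and 5 fell, against 20.0% and 23.5% of all genes tested, with a median of 0.03. AGPAT2, an acyltransferase of phospholipid and triglyceride synthesis, fell by 0.57 and ELOVL6, a fatty acid elongase, fell by 0.48.

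BCAM, a laminin receptor of basal epithelial cells, rose about 2.49-fold. It was at 11.49, 13.9 and 16.7 CPM with control siRNA, and at 33.5, 35.1 and 38.7 with ATF3 siRNA, 38.2, 28.9 and 36.9 with APOE siRNA, then 37.1, 32.6 and 33.4 with CXCL14 siRNA. All 9 targeting libraries lay above the controls and the 3 siRNA means were within a few CPM of each other. The log2 changes were 1.35, 1.31 and 1.29, the difference among them had an adjusted p of 0.895, and the pooled change was 1.32 ± 0.11. GRHL3, a transcription factor of epidermal barrier formation, was as level among the siRNAs: it was at 18.7 to 22.1 CPM in controls and at 35.9 to 41.1 in the targeting libraries (median 37.0), a pooled change of 0.91 ± 0.07, with an adjusted p of 0.617 for the difference among siRNAs. For ACLY, BCAM and GRHL3 no difference among the siRNAs was detected at the spread of these libraries.

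Among other even rises were genes of stress signalling and of keratinocyte differentiation. GDF15, a secreted stress cytokine, was at 19.3 to 29.4 CPM in controls and 48.1 to 131 in targeting libraries (median 67.8). The CXCL14 siRNA libraries, at 115, 131 and 131 CPM, were highest, and the log2 changes were 1.23, 1.48 and 2.36. STC2, a secreted glycoprotein of the integrated stress response, rose from 59.6 CPM in each control library to between 110 and 161 (median 135), a pooled change of 1.18 ± 0.07. CLDN1, a claudin of tight junctions, was at 58.5 to 60.03 CPM in controls and at 104 to 191 in targeting libraries (median 123). TINCR, a transcript induced in epidermal differentiation, was at 10.8 to 14.4 CPM in controls and 22.3 to 45.3 with the targeting siRNAs (median 29.9). SERPINB13, a protease inhibitor of stratified epithelium, was at 11.9 to 13.1 against 21.1 to 44.9 CPM (median 29.4). Both were highest with APOE siRNA, and neither overlapped the controls.

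The remaining even rises were CYSRT1 (1.83 on the log2 scale), a protein of the cornified envelope, ALDH3B2 (1.85), an aldehyde dehydrogenase, CYP4F3 (1.56), a fatty acid hydroxylase, TMEM87B (1.43), a membrane protein of the Golgi, and CHPF (1.25), a chondroitin polymerising factor. CHPF was the most abundant of them, at 218 to 276 CPM in controls and 403 to 712 in targeting libraries (median 584). CYSRT1, CYP4F3 and ALDH3B2 met the 5 CPM limit only through the siRNA mean, with control means of 2.02, 1.75 and 1.88 CPM. ALDH3B2 came nearest to overlap, at 3.35 CPM in its highest control library and 3.43 in its lowest targeting library, and its change was 2.54 without control library 3. All 5 passed the test in the pooled comparison with adjusted p between 6.89e-10 and 3.80e-05 (edgeR).

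NCEH1, a hydrolase of neutral cholesterol esters, led the even falls. It was at 58.3, 48.9 and 46.4 CPM with control siRNA, at 27.04, 23.7 and 24.1 with ATF3 siRNA, at 20.996, 21.5 and 21.8 with APOE siRNA, then at 20.9, 19.2 and 20.9 with CXCL14 siRNA. The targeting libraries were all below the lowest control, and the pooled change was -1.21 ± 0.07 on the log2 scale (edgeR adjusted p = 3.17e-09). ITGA2, a collagen-binding integrin of basal keratinocytes, was at 494, 409 and 362 CPM in controls and at 153 to 304 in targeting libraries (median 213). The ATF3 siRNA libraries, at 304, 251 and 240 CPM, lay nearest the controls, and the pooled change was -1.01 ± 0.09. SPRY4, a feedback inhibitor of receptor tyrosine kinase signalling, was at 105 to 112 CPM in controls and 57.2 to 78.0 in targeting libraries (median 67.5), a pooled change of -0.70 ± 0.06.

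IFITM2, an interferon-induced membrane protein, fell by 1.29 ± 0.17, but its near-identical paralogs share reads, so its level is uncertain, and the controls ranged from 21.9 to 47.0 CPM. ANO4, a TMEM16 family protein, was at 28.4 to 33.9 CPM in controls and 12.6 to 19.4 in targeting libraries (median 14.7). RNF168, a ubiquitin ligase of the DNA damage response, was at 31.6 to 33.4 CPM in controls and 17.0 to 21.2 in targeting libraries (median 18.3). For both genes every targeting library was below every control library. PHLPP2, a phosphatase of AKT, fell by 0.90 and GLCE, an epimerase of heparan sulfate synthesis, fell by 0.83. The others were SLC52A3, a riboflavin transporter (-1.19), ZSWIM4 (-0.91), RAPH1, a regulator of actin at the leading edge (-0.87), and CNTNAP1, a contactin-associated protein (-0.85). SLC52A3 and CNTNAP1 met the 5 CPM limit only through the control mean, with siRNA means of 3.20 and 3.87 CPM. The adjusted p for the difference among siRNAs was above 0.05 for RAPH1, GLCE, CNTNAP1 and RNF168, at 0.246, 0.109, 0.171 and 0.0822.

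**Figure D2:**
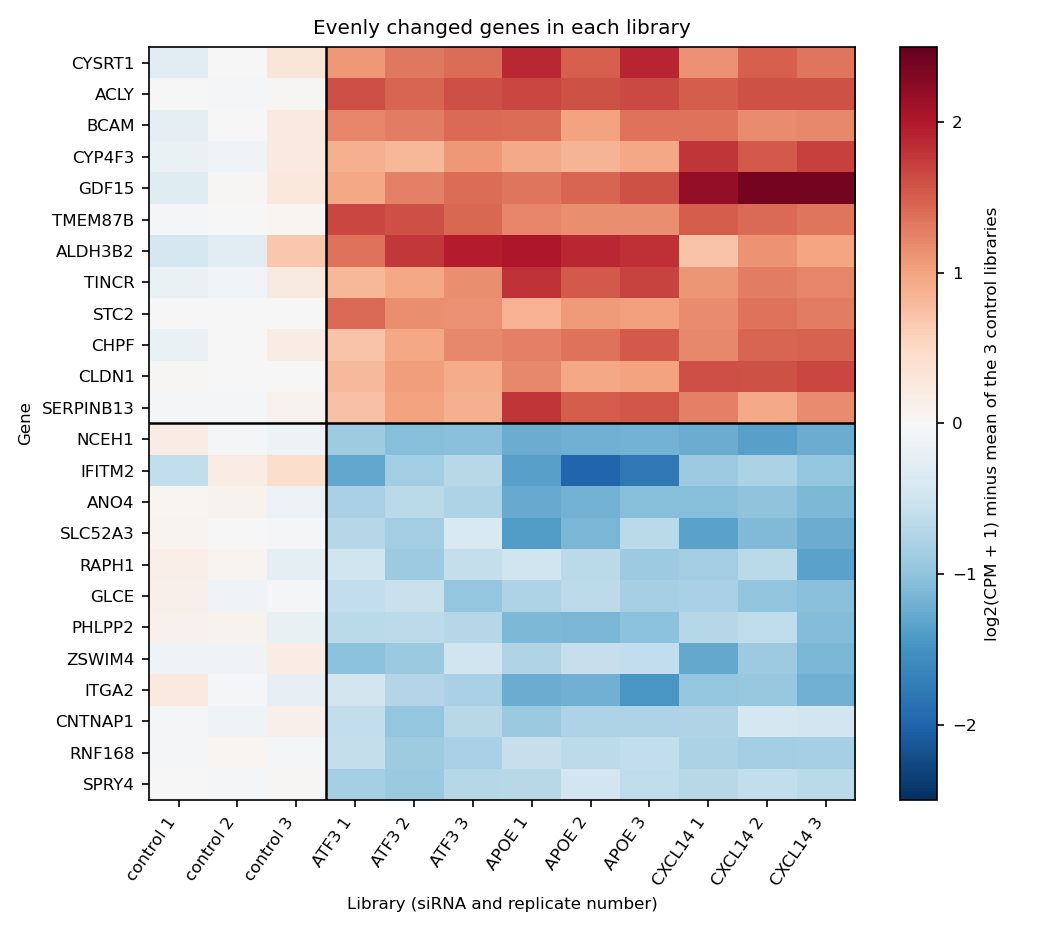
Levels of the 24 evenly changed genes (rows) in each of the 12 libraries (columns), as log2(CPM + 1) minus the mean of the 3 control libraries (color scale). The 12 genes above the horizontal line are higher and the 12 below it lower in all 9 targeting libraries than in the 3 control libraries left of the vertical line. ACLY is close to 1 shade across the targeting libraries, whereas GDF15 is strongest with CXCL14 siRNA.

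Among uneven and opposed protein-coding genes of at least 5 CPM in the control or the siRNA mean, CPA4 and the others described here had the largest pooled changes. Of these only TFPI2 met that limit in both means. CPA4, a carboxypeptidase, was at 2.48, 4.13 and 5.95 CPM with control siRNA, 8.89 to 13.1 with ATF3 siRNA, 19.7 to 26.2 with APOE siRNA and 234 to 251 with CXCL14 siRNA. Its pooled log2 change of 3.18 ± 0.19 averaged 1.29, 2.39 and 5.85. KRTDAP and SBSN, secreted proteins of differentiating keratinocytes, rose most with APOE siRNA. KRTDAP was at 0.186 to 0.907 CPM in controls, 4.05 to 4.54 with ATF3 siRNA, 11.5 to 15.6 with APOE siRNA and 1.76 to 2.18 with CXCL14 siRNA. TFPI2, a serine protease inhibitor of the matrix, was at 150 to 163 CPM in controls, 80.6 to 98.8 with ATF3 siRNA, 19.9 to 22.8 with APOE siRNA and 14.2 to 17.1 with CXCL14 siRNA. NLRP3, an inflammasome sensor, fell by 2.29 in the mean, and by 0.86, 3.35 and 2.66 with the ATF3, APOE and CXCL14 siRNAs. TMEM156 (-2.03) and ARHGAP25 (-2.02) also fell unevenly. BOLA2B, which has a near-identical copy, was called at 3.46 ± 1.34, but ranged from 0.422 to 23.1 CPM within the APOE siRNA libraries, so its value is uncertain. Its adjusted p was 0.0473, its call was lost in 14 of 23 alternatives, and its change was 2.08 without APOE siRNA library 2.

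Cytosolic ribosomal protein genes, which encode the subunits of the ribosome, were the list with the most even members. Of 57 tested, 52 rose and 1 fell (RPS7, -0.26), against 20.0% and 23.5% of all tested genes, and 30 were even rises. Over all genes tested 598 of 14920 were even rises, to be set beside the even rises of each list below. The median pooled change was 0.32 on the log2 scale, and -0.01 over all genes tested. It was 0.26 with ATF3 siRNA, 0.42 with APOE siRNA and 0.35 with CXCL14 siRNA. A difference among the siRNAs was called for 35 of the 57 members, against 68.7% of all genes tested. Their summed level was 36571 to 37120 CPM in controls and 41950 to 50531 in targeting libraries, without overlap. RPL9, RPL22, RPL38 and RPS12 did not pass the test, with changes of 0.15, 0.13, 0.14 and 0.09. With the 9 libraries as 1 group 25 were called, all higher. Ribosomal protein genes have many processed pseudogenes, so reads may be shared.

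RPS18 is an example of the even members. It was at 765, 819 and 798 CPM in controls, 1086, 1027 and 942 with ATF3 siRNA, 1116, 1103 and 1106 with APOE siRNA, then 1252, 1172 and 1222 with CXCL14 siRNA. Every targeting library lay above the highest control, a pooled change of 0.48 ± 0.05 on the log2 scale. RPS19 (0.47 ± 0.05) was also even, and RPL13A (0.57 ± 0.05) was uneven, with 0.34, 0.80 and 0.56 by siRNA. Many ribosomal protein messages start with a run of pyrimidines, the terminal oligopyrimidine tract, through which their translation is controlled. The bases around the starts of 3 of these genes are shown because such a tract was found in most promoter entries of ribosomal protein genes, from 40 bases before to 18 after the RefSeq start (GRCh38.p14), 5′ to 3′, with the tract in capitals.
RPS18 (chr6:33272035-33272092, plus strand): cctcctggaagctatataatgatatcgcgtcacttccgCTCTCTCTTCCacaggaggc
RPS19 (chr19:41860215-41860272, plus strand): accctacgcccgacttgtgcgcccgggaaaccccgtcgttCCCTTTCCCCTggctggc
RPL13A (chr19:49487568-49487625, plus strand): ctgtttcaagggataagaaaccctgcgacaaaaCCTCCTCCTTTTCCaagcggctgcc
A tract, a C followed by at least 5 pyrimidines on the gene's strand between 10 bases before and 16 after the start, was found in 43 of 57 promoter entries of 45 matched ribosomal protein genes (75.4%), and in 7288 of 35116 entries of all genes (20.8%). Outside the ribosomal protein genes the median pooled change was -0.02 for 2727 coding genes with a tract and -0.02 for 7272 without, and 4.62% and 3.78% of them were even rises.

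Nuclear-encoded genes of oxidative phosphorylation, the mitochondrial respiratory chain and ATP synthase, rose in 34 of 50 tested members and fell in 1, against 20.0% and 23.5% of all genes tested. The median pooled change was 0.23, with 0.22, 0.26 and 0.28 by siRNA in the order ATF3, APOE and CXCL14. Even rises numbered 15, beside 598 of 14920 over all genes tested. A difference among the siRNAs was called for 25 of the 50 members, against 68.7% of all genes tested. COX5B, a subunit of cytochrome c oxidase, was at 68.1, 77.4 and 78.3 CPM in controls and 91.4 to 101 in targeting libraries, and its changes of 0.38, 0.38 and 0.36 gave an adjusted p of 0.957 for the difference among siRNAs. NDUFB7 (0.48) and COX4I1 (0.34) were even, and 6 members were called with the 9 libraries as 1 group. The 13 genes encoded in the mitochondrial genome had a median of -0.09, with 1 higher and 2 lower, and this count ran from 0 to 7 over the alternatives, 0 or 7 being reached without a filter or without control library 2.

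Small nucleolar RNA host genes, spliced transcripts whose introns carry small nucleolar RNAs, rose in 15 of 20 tested members with 0 falls and a median of 0.43, but 2 were even. The shares over all genes tested were again 20.0% higher and 23.5% lower, for the proteasome and translation lists too. Their medians were 0.18, 0.69 and 0.41 with the ATF3, APOE and CXCL14 siRNAs. C6orf48 was at 33.4, 39.8 and 42.1 CPM in controls and 52.1 to 68.4, 81.3 to 93.2 and 110 to 118 CPM with the 3 siRNAs in that order. Of 31 proteasome subunits 13 rose and 4 fell (median 0.11), though without control library 2 the number called was 10 in place of 17. Of 39 translation factors 17 rose and 7 fell, and 15 in place of 24 were called without control library 2.

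Targets of p53 rose in graded sizes. Of 30 tested 23 rose and 2 fell, against 20.0% and 23.5% of all genes, with a median of 0.38 and siRNA medians of 0.24, 0.38 and 0.55. Even rises numbered 4, beside 598 of 14920 over all genes tested. Summed p53 targets were at 3101 to 3300 CPM in controls and 3731 to 5143 in targeting libraries. CDKN1A, the p21 inhibitor of cyclin-dependent kinases, was at 924, 946 and 1013 CPM in controls, 1338, 1354 and 1445 with ATF3 siRNA, 1705, 1699 and 1806 with APOE siRNA, then 1873, 1997 and 2074 with CXCL14 siRNA. The siRNAs stood in this order with no overlap between them. TP53INP1, a p53-induced nuclear protein, rose by 1.10, 2.98 and 3.18 on the log2 scale, and RRM2B, a p53-induced ribonucleotide reductase subunit, by 0.69, 1.02 and 1.27. With the 9 libraries as 1 group 7 were called, all higher.

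Of 36 ATF4 and integrated stress response targets, 21 rose and 3 fell, against 20.0% and 23.5% of all genes, with a median of 0.26. Their siRNA medians were 0.28, 0.35 and 0.16, with 5 even rises, beside 598 of 14920 over all genes tested. PSPH, the last enzyme of serine synthesis, was at 25.7 to 29.9 CPM in controls and 46.1 to 58.8 in targeting libraries (median 54.1), and rose by 0.77, 0.95 and 1.01. NUPR1, a stress-induced chromatin protein, rose by 1.22, 2.82 and 3.09. The summed level of the list overlapped, at 11529 to 11755 CPM in controls and 10760 to 15451 in targeting libraries. Of 23 unfolded protein response genes 1 rose (SYVN1) and 10 fell, beside the same 20.0% and 23.5%. Their medians were 0.12, -0.08 and -0.35 with the ATF3, APOE and CXCL14 siRNAs, with 0 even falls and 5 members opposed. Lysosome genes rose in 22 of 31 with 0 falls, beside the same shares, with a median of 0.30. The siRNA medians were 0.18, 0.38 and 0.47, and 3 members were even rises, beside the same 598 of 14920. CTSD, the protease cathepsin D, was at 161 to 174 CPM in controls and 195 to 243, 401 to 492 and 367 to 431 CPM with the ATF3, APOE and CXCL14 siRNAs.

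**Figure D3:**
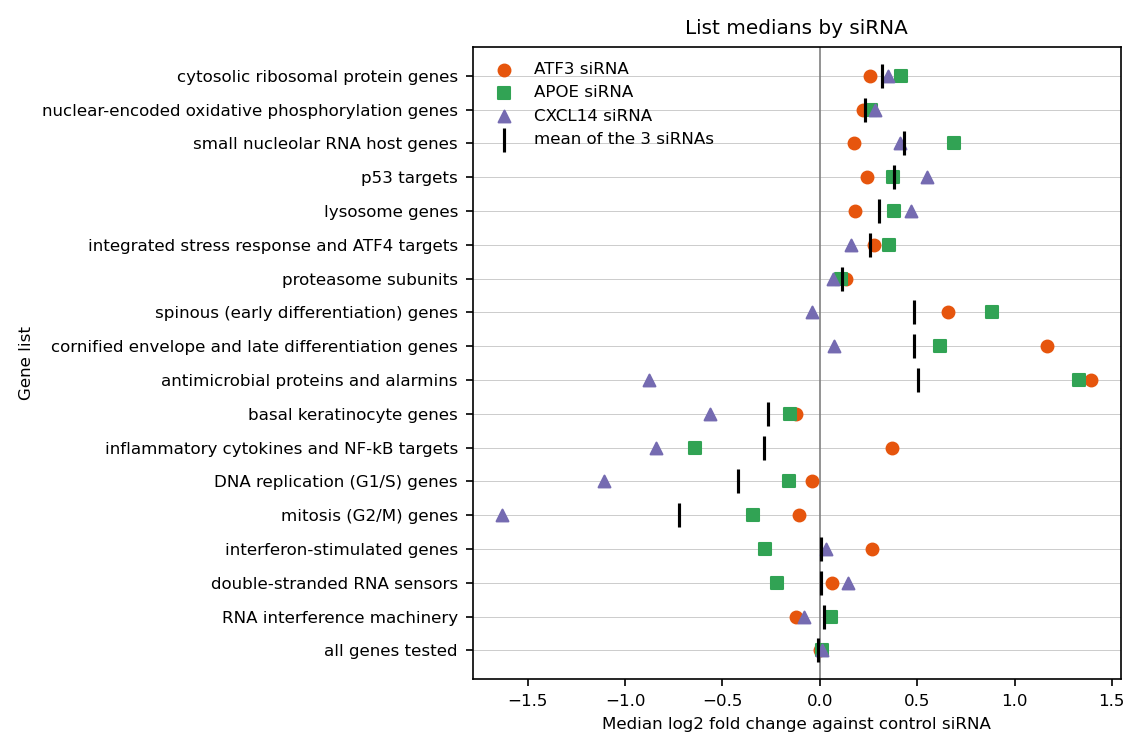
Median log2 fold change against control siRNA of the tested members of 17 gene lists and of all genes tested, for each siRNA (symbols) and for the mean of the 3 (black bar). The 3 symbols lie close together for ribosomal protein genes (0.26 to 0.42) and oxidative phosphorylation genes (0.22 to 0.28), and far apart for mitosis genes and for antimicrobial proteins. Medians do not show single members: 35 of 57 and 25 of 50 members of the first lists were called for a difference among the siRNAs.

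Cell cycle lists fell in the mean but not evenly. Of 36 mitosis genes 35 fell and 0 rose, against 23.5% and 20.0% of all genes tested, with 29 uneven, 6 opposed and 0 even. Their medians were -0.11 with ATF3 siRNA, -0.34 with APOE siRNA and -1.63 with CXCL14 siRNA, and 2, 20 and 36 members fell against control alone, where 9.14%, 22.5% and 28.4% of all genes did. CENPE, a kinesin of the kinetochore, was at 48.2, 42.9 and 30.8 CPM in controls, 41.1, 36.7 and 27.8 with ATF3 siRNA, 14.03, 14.1 and 11.7 with APOE siRNA, then 5.69, 4.58 and 4.52 with CXCL14 siRNA. The ATF3 siRNA libraries overlapped the controls and the CXCL14 siRNA libraries were lowest. Of 35 DNA replication genes 27 fell and 0 rose, beside the same shares of all genes, with medians of -0.04, -0.16 and -1.11. MCM6, a subunit of the replicative helicase, was at 67.8 to 69.0 CPM in controls, 61.7 to 76.4 with ATF3 siRNA, 17.0 to 20.99 with APOE siRNA and 21.3 to 27.00 with CXCL14 siRNA. With the 9 libraries as 1 group 0 mitosis and 0 replication genes were called.

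Of 27 cornified envelope genes, 17 rose and 3 fell in the mean, against 20.0% and 23.5% of all genes tested, with a median of 0.48, and 10 were opposed and 4 were even rises. Against control alone 19, 16 and 7 rose with the ATF3, APOE and CXCL14 siRNAs, where 11.2%, 22.3% and 27.4% of all genes did, and 0, 1 and 7 fell, where 9.14%, 22.5% and 28.4% did. The medians were 1.17 with ATF3 siRNA, 0.61 with APOE siRNA and 0.08 with CXCL14 siRNA. TGM1, the transglutaminase that cross-links the envelope, was at 9.85, 10.1 and 14.7 CPM in controls, 63.3, 95.2 and 108 with ATF3 siRNA, 52.1, 47.2 and 44.0 with APOE siRNA, then 13.3, 10.2 and 9.18 with CXCL14 siRNA. The CXCL14 siRNA libraries lay within or below the range of the controls. Among 22 spinous genes 14 rose and 1 fell, with medians of 0.66, 0.89 and -0.04. Of 20 basal keratinocyte genes 2 rose (BCAM and KRT15) and 13 fell, with a median of -0.27, both lists read against the same 20.0% and 23.5%. The basal medians were -0.12, -0.15 and -0.56 with the ATF3, APOE and CXCL14 siRNAs. Of the called basal genes 1 was an even rise, 1 an even fall and 4 were opposed. In these bulk libraries fewer cells of a kind and less RNA per cell cannot be told apart.

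Antimicrobial proteins that passed the test were 5 opposed and 2 uneven, and inflammatory and NF-kB targets 8 opposed and 9 uneven. Of 11 antimicrobial genes 6 rose and 1 fell in the mean, against 20.0% and 23.5% of all genes, and the siRNA medians were 1.39, 1.33 and -0.88. PI3, the elastase inhibitor elafin, was at 11.7 to 12.2 CPM in controls, 41.7 to 50.1 with ATF3 siRNA, 83.3 to 92.9 with APOE siRNA and 5.56 to 7.54 with CXCL14 siRNA, so the libraries lay on both sides of the controls. Of 27 inflammatory and NF-kB genes 4 rose and 13 fell, beside the same shares, with medians of 0.37, -0.64 and -0.84. CSF3, a granulocyte growth factor, fell by 0.33, 1.53 and 3.23 on the log2 scale.

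Genes by which cells sense or process small RNA were called in both directions. Of 41 interferon-stimulated genes 8 rose and 8 fell (39.0%, against 43.5% of all genes tested), with a median of 0.01 and siRNA medians of 0.27, -0.28 and 0.03. The sign of that median changed in 8 alternatives, library size alone among them. The summed level of the list ran from 10134 to 16858 CPM in controls and from 12572 to 17641 in targeting libraries. The control libraries thus differed widely among themselves for this list. Of 14 double-stranded RNA sensors 3 rose and 5 fell (57.1%, against the same 43.5%, median 0.01, its sign changed in 7 alternatives). Of 15 genes of the RNA interference machinery 3 rose and 4 fell (46.7%, near the 43.5% of all genes, median 0.02, changed in 1). TARBP2, a partner of Dicer, rose by 0.40 and AGO4, an Argonaute protein, by 0.38, whereas DROSHA, the nuclease of primary microRNA, fell by 0.28. Each of these was uneven. With the 9 libraries as 1 group 0 sensors and 0 genes of the RNA interference machinery were called. The 1 even gene among the called members of these 3 lists was IFITM2, which fell.

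The pooled change also followed gene length, as deposited with the counts. In 5 bins of 2984 genes from the shortest to the longest the median pooled change was 0.09, 0.04, 0.00, -0.04 and -0.10 on the log2 scale. The shortest bin held 172 even rises and 27 even falls, and the longest 66 and 90. From the shortest to the longest bin the median went from 0.09 to -0.09 with ATF3 siRNA, from 0.15 to -0.09 with APOE siRNA and from 0.08 to -0.09 with CXCL14 siRNA. Set against the mean of the other 3 groups, the medians in the same bins were 0.03 and 0.00 for ATF3 siRNA, 0.11 and -0.01 for APOE siRNA and 0.01 and -0.01 for CXCL14 siRNA. In single libraries the median of the shortest minus that of the longest bin, after centring each gene over the 12 libraries, was -0.20, -0.14 and -0.10 in the controls and -0.04 to 0.18 in the targeting libraries. The control libraries were the 3 lowest, and the part of length in single genes was not tested. Of the ribosomal protein genes 18 of 57 were in the shortest bin, and of the oxidative phosphorylation genes 24 of 50. After subtracting the median of each gene's own bin, the list medians were 0.30 in place of 0.32 and 0.19 in place of 0.23, and for small nucleolar RNA host genes 0.37 in place of 0.43.

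**Figure D4:**
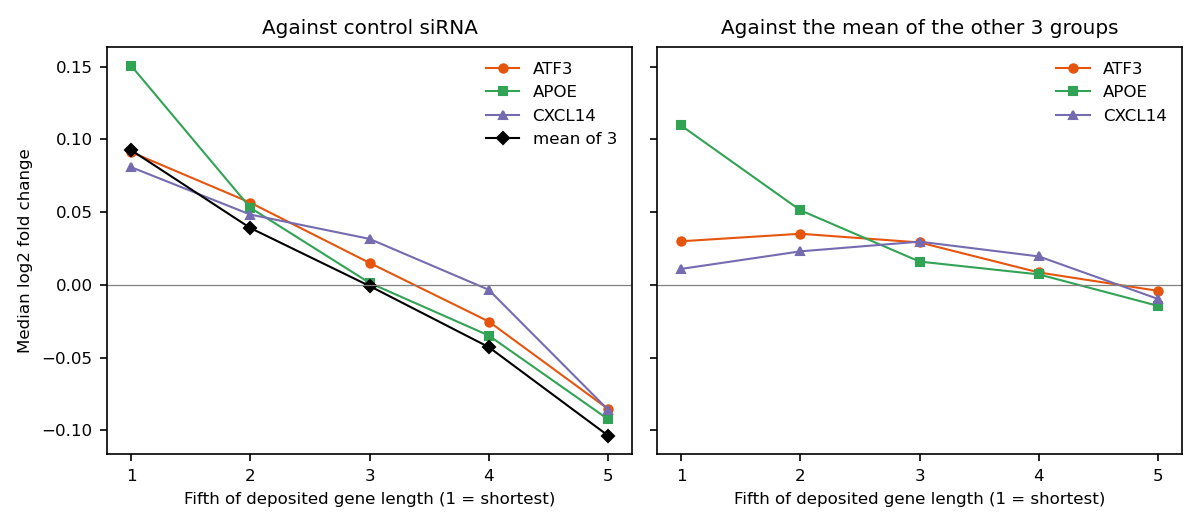
Median log2 fold change in 5 bins of deposited gene length (1 the shortest, 5 the longest) for each siRNA against control siRNA and their mean (left), and for each targeting siRNA against the mean of the other 3 groups (right). Against control every line falls, from 0.08 to 0.15 in bin 1 to about -0.09 to -0.10 in bin 5, and on the right the lines run from 0.01, 0.03 and 0.11 in bin 1 to between 0.00 and -0.01 in bin 5.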

How the data were processed

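Poly-A selected RNA of 12 libraries was sequenced in bulk. The authors deposited raw counts per gene, which alone were used here; alignment by HISAT2 2.0.5 to hg38 and counting by featureCounts 1.5.0-p3 are named in the submitters' processing notes. Strand setting and annotation are not given in the sources used here, so values of overlapping antisense genes are uncertain. Columns were mapped to samples by target and replicate number. Counts were filtered (filterByExpr, 14920 of 58735 genes, 99.9% of counts), scaled by TMM and fitted by quasi-likelihood in edgeR 4.0.16 (R 4.3.3), with 1 term per group over 12 libraries and Benjamini-Hochberg adjustment. The SE of a change is its size over the square root of F. The fit was tested on simulated counts. CPM use TMM-scaled library sizes, and separate-control counts use a prior count of 2. Depth sets the floor: 3 counts are 0.135 to 0.185 CPM. These floors cover counting error only. The members, rules and 39 gene lists were chosen with earlier results of these data known.

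Named genes were the 3 targets, the 12 even genes per direction described above, the 4 largest uneven or opposed changes per direction and from each list with at least 3 called members the 4 of lowest adjusted p, or else the 2 most abundant; the text describes some of these 168 genes, and 1 is not reported here. RPS7, RPL9, RPL22, RPL38, RPS12 and the genes beside the evenness limit fall outside that rule and were named after their values were seen. Alternatives were other scaling (DESeq2 size factors, or library size alone), no filter or a stricter one, DESeq2 1.42.0, limma-voom (limma 3.58.1), a replicate block, the 9 libraries as 1 group, other limits, and leaving out each siRNA or library. The list counts with the 9 libraries as 1 group and the correction by length bin were added after seeing the data. Promoters are from RefSeq (GRCh38.p14), leaving out 1 chromosome.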

Additional observations from a re-analysis of the deposited data

How the results depend on the processing

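With the 9 targeting libraries as 1 group 570 genes were called, 351 of them even, as the spread between siRNAs enters the error; there APOE (0.0676) and KRT6B (0.0390) reversed on the log2 scale. A 1.5-fold limit left 1871 genes, a ratio limit of 0.67 left 299 even genes, and a 2-fold limit left 43 to 66 genes with separate control libraries. Leaving out 1 library in turn gave 5114 to 6580 pooled calls and 675 to 945 even genes, the fewest without control library 1. For ATF3 siRNA against control it gave 1916 to 3003 calls, again fewest without control library 1; the cause was not tested. Without ATF3 siRNA, ATF3 (0.34) and S100A9 (-0.0879) reversed. Without APOE siRNA, APOE (0.58), HIST1H2BD (-0.0527) and COL1A1 (-0.31) reversed. Without CXCL14 siRNA, TSN (0.0457), KRT6B (0.55) and HIST1H2AC (-0.0436) reversed. Of 3859 values of 168 named genes over 23 alternatives 162 lost the call, 5 gained it and 10 reversed. A reversal was counted only where the main or the alternative value was called. The other 3682 were the same in this sense. They include uncalled changes of sign, such as that of CXCL14, whose lowest value was -1.47. The replicate block gave 7271 pooled calls, 3355 higher and 3916 lower. Same-numbered libraries correlated at -0.02 to 0.23 in their deviations from group means, 11 of 18 pairs over 0.1, and 11 of 12 libraries correlated best with their own number, a hint from the data and not from the design. The medians of interferon-stimulated genes, double-stranded RNA sensors and MHC class I genes changed sign in 8, 7 and 5 alternatives. List medians were recomputed only with other scaling, without a filter, with the replicate block and with single libraries left out. They were not recomputed without a whole siRNA or with the 9 libraries as 1 group. Low counts limit the targets: CXCL14 in controls lies near its floor.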
